A study of Homo sapiens with 6 samples.

Results

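Cohesin is a ring-shaped protein complex that holds sister chromatids together from DNA replication until anaphase and that forms chromatin loops in interphase. Its ring is built from the long coiled-coil proteins SMC1A and SMC3, which are joined by the kleisin RAD21, and a STAG protein binds the ring at RAD21. The NIPBL and MAU2 pair loads the ring onto DNA, and WAPL, working with PDS5A or PDS5B, releases it.

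The 10 genes of this machinery were followed in H460 cells, a human non-small-cell lung cancer line, after knockdown of *HKlincR1*, a long intergenic non-coding RNA also called AC093323.3. They were chosen by name, as the core subunits (*SMC1A*, *SMC3*, *RAD21*, *STAG1*, *STAG2*), the loader (*NIPBL*, *MAU2*) and the release factors (*WAPL*, *PDS5A*, *PDS5B*), and all 10 were found among the 57773 genes listed in the deposited expression values. *SMC1A* was selected on its fall in this same contrast, so its values are a description and carry no test, whereas the other 9 came in as its partners. All 10 were among the 15451 genes whose mean level reached the filter of 0.5 RPKM. RPKM is a read count scaled to the length of the gene and the depth of the library.

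The study profiled polyA RNA from 3 biological replicates of cells given a non-targeting siRNA (siNT) and 3 of cells given an siRNA against *HKlincR1* (siHKlincR1). Both siRNAs were used at 50 nM, with RNA taken at 48 hours. All 6 libraries come from the same cell line, and the knockdown libraries rest on a single siRNA, siHKlincR1_2, as the study's methods state. The libraries held 24980280 to 30521000 reads. *HKlincR1* stood at 3.62, 3.47 and 3.83 RPKM in the siNT libraries and at 0.563, 0.628 and 0.390 RPKM in the siHKlincR1 libraries, which is 14.5% of the siNT mean (limma with Benjamini-Hochberg adjustment, adjusted p = 0.00245). The epithelial keratins were present in the siNT libraries, with means of 31.5 RPKM for *KRT8*, 82.4 RPKM for *KRT18* and 41.6 RPKM for *KRT19*, but *EPCAM*, which marks most epithelial cells, was near 0 at 0.0556 RPKM. The markers of blood (*PTPRC*), endothelium (*VWF*) and macrophages (*CD68*) and the fibroblast marker *DCN* had siNT means of at most 0.037 RPKM, and the other fibroblast marker, *COL1A1*, stood at 1.10 RPKM with siNT and 0.58 RPKM with siHKlincR1 (limma with Benjamini-Hochberg adjustment, adjusted p = 0.196, and 0.039 without siHKlincR1 replicate 3).

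*SMC1A* RNA was at 45.9% of its siNT level after the knockdown, while each of the other 9 members stayed within 1.5-fold of its siNT level and none passed the test. Its direct ring partners *SMC3* and *RAD21* were among those 9. *SMC1A* (ENSG00000072501) had 37, 40.4 and 38.5 RPKM in siNT replicates 1, 2 and 3, and 17.1, 17.1 and 19.0 RPKM in siHKlincR1 replicates 1, 2 and 3. The groups lie far apart, with the lowest siNT library well above the highest siHKlincR1 library. The means were 38.6 ± 1.73 RPKM with siNT and 17.7 ± 1.12 RPKM with siHKlincR1 (SD, n = 3). The fall was of similar size whichever same-numbered libraries are set side by side, with 46.3%, 42.2% and 49.5% of the siNT level remaining. These values rest on 10958, 13175 and 10258 reads with siNT and 5199, 5271 and 6079 reads with siHKlincR1, as worked back from the RPKM values. The log2 fold change was -1.12, and 66 of the 15451 tested genes had a more negative one. In bulk RNA, fewer cells with *SMC1A* RNA and less of it per cell cannot be told apart.

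**Figure D1:**
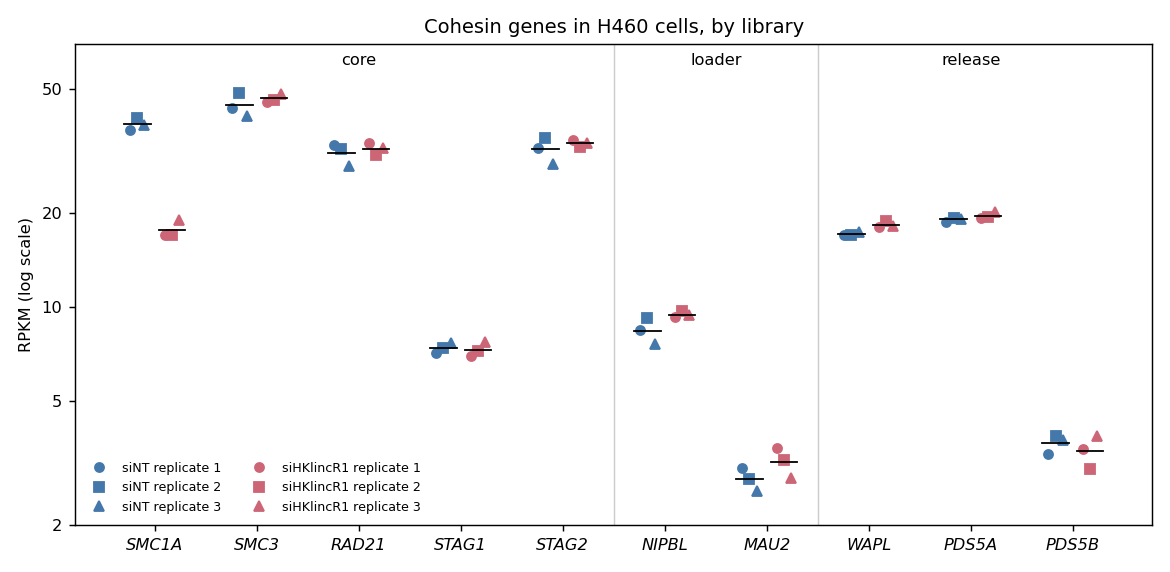
RPKM of the 10 cohesin genes on a log axis, 1 point per library (circle, square and triangle for replicates 1, 2 and 3), with the siNT libraries in blue, the siHKlincR1 libraries in red and a line at each group mean. Only SMC1A shows a wide gap between the groups, from 38.6 to 17.7 RPKM on average. NIPBL and WAPL have narrow gaps upward, and the other 7 genes overlap.

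The siRNA used is shown with its places of pairing, since a short interfering RNA can also pair with other transcripts through its seed, the bases at guide positions 2 to 8. The sense strand is as given by the authors and the guide is its reverse complement. The paper states that its siRNAs carried the ON-TARGETplus modification, which the sequence matches here do not take into account. The target and the *SMC1A* stretches were read from GRCh37, written as the RNA strand reads, and the capitals mark the seed and the bases that pair with it.
siHKlincR1_2 sense strand: gaaguauacucgugugcuu
siHKlincR1_2 guide strand: aAGCACACgaguauacuuc
*HKlincR1* target, chr4:6677040-6677058, plus strand: gaagtatactcGTGTGCTt
*SMC1A* site 1, chrX:53404947-53404965, minus strand: acaggtttgatGTGTGCTa
*SMC1A* site 2, chrX:53402581-53402599, minus strand: ttagacattctGTGTGCTg

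The *HKlincR1* stretch pairs with all 19 guide positions. The *SMC1A* sites pair over the 7 seed positions and little else, with 3 further paired positions in site 1 and 2 in site 2. Site 1 also ends in an A facing guide position 1, and site 2 ends in a G. Both lie in the 3′ UTR of the canonical *SMC1A* transcript (ENST00000322213), which is 5954 bases long. The 7 seed-paired bases of site 1 begin at base 2070 after the stop codon, at 34.8% of the UTR. Those of site 2 begin at base 4436, at 74.5%.

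The 7-base match GTGTGCT, searched on the transcript strand, was absent from the canonical 3′ UTRs of the other 9 members and from their longest annotated 3′ UTRs. Those canonical UTRs are shorter than that of *SMC1A*, between 1521 bases for *NIPBL* and 2972 bases for *MAU2*. Of 10760 tested genes with a 3′ UTR, 14.1% held the match at least once and 1.98% held it 2 or more times. Length bears on this, because among the 676 genes whose 3′ UTR was within 20% of the length of that of *SMC1A* the shares were 33.9% and 5.03%. The coding regions of *SMC1A*, *STAG2*, *MAU2* and *WAPL* held the match 1 time each, and those of the other 6 members did not hold it.

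The shorter match TGTGCT, which pairs with guide positions 2 to 7 and lies inside the 7-base match, occurred 4 times in the *SMC1A* 3′ UTR, 2 of them within the sites above. It was also present 3 times in *PDS5A*, 2 times in *STAG1* and 1 time each in *MAU2*, *WAPL* and *PDS5B*, and was absent from *SMC3*, *RAD21*, *STAG2* and *NIPBL*. The share with it was 44.6% of all such tested genes and 88.2% of those with a 3′ UTR of a length near that of *SMC1A*. The 6-base match was thus held by *SMC1A* and by 5 members without a called change, or by 4 of them in the longest annotated 3′ UTRs, where *STAG1* holds 0 copies.

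The 213 tested genes with at least 2 copies of the 7-base match, *SMC1A* included, had a median log2 fold change of -0.08, and 68.1% of them were lower in sign. Over the 10760 tested genes with a 3′ UTR these values were -0.02 and 53.0%. The 34 of the 213 with a 3′ UTR of a length near that of *SMC1A* had a median of -0.14 with 64.7% lower in sign, beside 0.00 and 49.9% over the 676 genes of that length. The cutoff of 2 copies is the count of *SMC1A* itself, and genes with 1 copy were not summarised on their own. Whether the sites have a part in the fall of *SMC1A* was not tested, and no knockdown library made with another siRNA was analysed here. The seed match of the study's other siRNA, siHKlincR1_1, is CAGCATT, which was absent from the *SMC1A* 3′ UTR, present 3 times in that of *PDS5A* and 1 time in that of *NIPBL*, and held by 17.7% of tested genes.

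**Figure D2:**
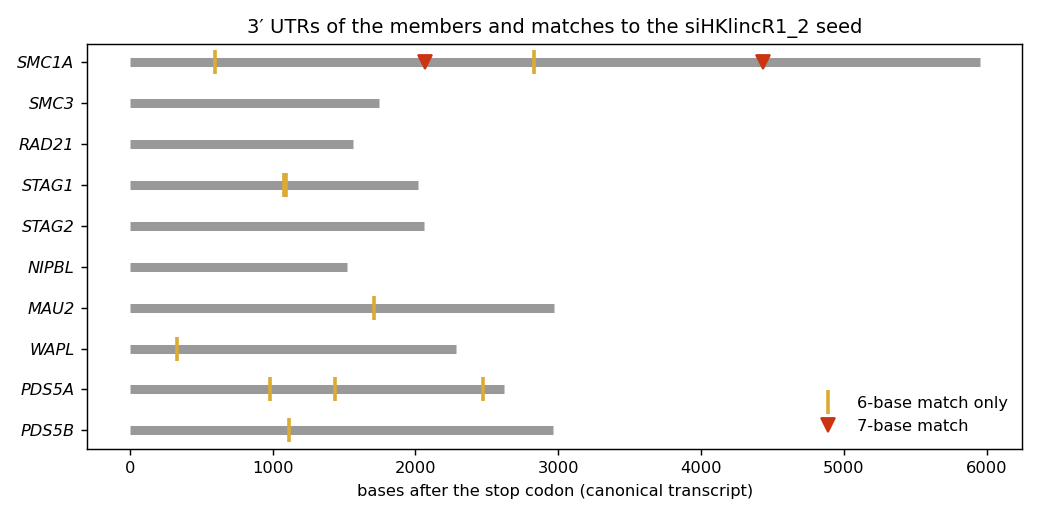
Canonical 3′ UTRs of the 10 members as grey bars, in bases after the stop codon, with 7-base seed matches of siHKlincR1_2 as red triangles and 6-base matches outside them as yellow ticks. The 2 triangles, at 2070 and 4436 bases, both lie in SMC1A, whose 3′ UTR of 5954 bases is the longest drawn.

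*SMC3*, the partner of *SMC1A* at the hinge of the ring, had the highest mean RPKM of the members in both groups. It had 43.5, 48.6 and 41.2 RPKM with siNT and 45.6, 46.4 and 48.5 RPKM with siHKlincR1, and the groups overlapped. Its log2 fold change was 0.08 with a standard error of 0.08 (limma with Benjamini-Hochberg adjustment, adjusted p = 0.624), and the 95% interval of the fold ran from 0.931 to 1.20. A loss of the size seen for *SMC1A* lies outside that interval.

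*RAD21*, the kleisin that separase cleaves at anaphase, had 33.1, 32.2 and 28.3 RPKM with siNT and 33.6, 30.7 and 32.5 RPKM with siHKlincR1. The groups overlapped, and the log2 fold change was 0.05 (limma with Benjamini-Hochberg adjustment, adjusted p = 0.77; 95% interval of the fold, 0.908 to 1.18).

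The 2 STAG genes encode alternative subunits, so that a ring carries either STAG1 or STAG2. *STAG2* had 32.5, 34.9 and 28.9 RPKM with siNT and 34.3, 32.8 and 33.6 RPKM with siHKlincR1, a log2 fold change of 0.07 (limma with Benjamini-Hochberg adjustment, adjusted p = 0.683). *STAG1* had 7.14, 7.41 and 7.68 RPKM with siNT and 6.96, 7.25 and 7.73 RPKM with siHKlincR1, a log2 fold change of -0.02 (limma with Benjamini-Hochberg adjustment, adjusted p = 0.91). The groups overlapped for both, and *STAG2* was the more abundant of the pair per length in all 6 libraries. The ratio of their RPKM values was 4.34 ± 0.509 with siNT and 4.60 ± 0.298 with siHKlincR1 (SD, n = 3; exact two-sided permutation test, p = 0.6, where 3 libraries against 3 allow no p below 0.1).

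*NIPBL*, the large loader subunit, had 8.43, 9.20 and 7.60 RPKM with siNT and 9.28, 9.69 and 9.41 RPKM with siHKlincR1. The groups did not overlap, but by a narrow margin between siNT replicate 2 and siHKlincR1 replicate 1. Its log2 fold change, 0.17 with a standard error of 0.09, fell short of the threshold (limma with Benjamini-Hochberg adjustment, adjusted p = 0.356, and 0.198 in the blocked fit), and the 95% interval of the fold was 0.980 to 1.30. Its partner *MAU2* had 3.05, 2.80 and 2.57 RPKM with siNT and 3.52, 3.23 and 2.83 RPKM with siHKlincR1, and these groups overlapped. Each siHKlincR1 library was above the siNT library of the same number, at 115%, 115% and 110% of its level. The same held for *NIPBL*, *WAPL* and *PDS5A*, and the share of all tested genes with this pattern was not counted. *MAU2* had the highest point estimate of the 10, a log2 fold change of 0.18 (limma with Benjamini-Hochberg adjustment, adjusted p = 0.458, and 0.223 in the blocked fit; 95% interval of the fold, 0.938 to 1.36). The ratio of *NIPBL* to *MAU2* was 3.00 ± 0.263 with siNT and 2.99 ± 0.347 with siHKlincR1 (SD, n = 3; exact two-sided permutation test, p = 1.0).

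*WAPL*, listed under the older name WAPAL in older annotations, had 17.0, 17.1 and 17.5 RPKM with siNT and 18.1, 18.9 and 18.2 RPKM with siHKlincR1. All 3 siHKlincR1 libraries were above all 3 siNT libraries, a small step of 0.10 on the log2 scale that fell short of the threshold (limma with Benjamini-Hochberg adjustment, adjusted p = 0.427, and 0.288 in the blocked fit; 95% interval of the fold, 0.972 to 1.18). *PDS5A* had 18.8, 19.4 and 19.2 RPKM with siNT and 19.3, 19.5 and 20.2 RPKM with siHKlincR1, with overlapping groups and a log2 fold change of 0.04 (limma with Benjamini-Hochberg adjustment, adjusted p = 0.742). *PDS5B*, its paralog, had 3.38, 3.86 and 3.75 RPKM with siNT and 3.50, 3.03 and 3.85 RPKM with siHKlincR1, again overlapping, with a log2 fold change of -0.08 (limma with Benjamini-Hochberg adjustment, adjusted p = 0.717). The interval for *PDS5B* was among the wider ones, 0.787 to 1.13 as a fold. *PDS5A* exceeded *PDS5B* per length in every library, with ratios of 5.23 ± 0.283 for siNT and 5.72 ± 0.624 for siHKlincR1 (SD, n = 3; exact two-sided permutation test, p = 0.3).

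Counted together, 0 of the 9 members other than *SMC1A* were called lower or higher, which takes a fold over 1.5 beside an adjusted p under 0.05, where 0.356% of all tested genes were called lower and 0.00647% higher (limma with Benjamini-Hochberg adjustment). Without the fold threshold, again 0 of 9 passed, where 0.453% of all tested genes did, so the expected number among 9 genes is itself close to 0. Blocking on the replicate number raised the calls over all genes from 55 to 125 lower and from 1 to 79 higher, and the members still gave 0 of 9. None of the 9 was under an unadjusted p of 0.05, where 16.2% of all tested genes were. Again 0 of 9 had an adjusted p under 0.05 with the block, where 2.93% of all tested genes did, or in a limma voom fit to the worked-back reads, where 0.932% did. Groups that did not overlap were found for 2 of 9, *NIPBL* and *WAPL*, beside 22% of all tested genes. The sign was positive for 7 and negative for 2, with a median log2 fold change of 0.07 beside 0.00 over all tested genes. That median was 0.03 without siNT replicate 3. The absolute log2 fold change had a median of 0.08 over the 9 members and 0.14 over all tested genes, and 58.6% of tested genes changed by no more than the member with the highest absolute value, *MAU2*.

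**Figure D3:**
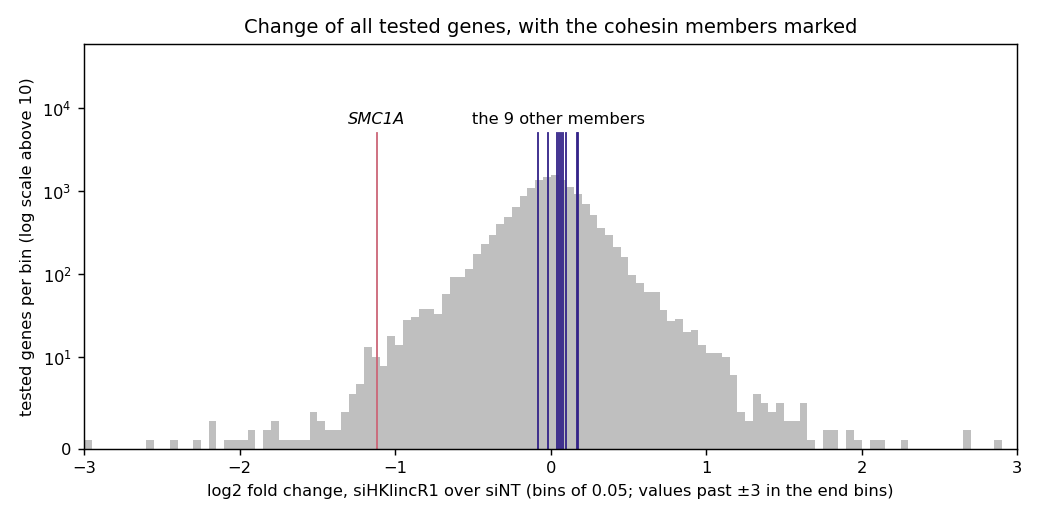
Number of tested genes per bin of log2 fold change (siHKlincR1 over siNT, bins of 0.05, log scale above 10), with the members as vertical lines. SMC1A at -1.12 lies in the left tail, and the 9 other members lie between -0.08 and 0.18, in the central bulk.

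By RPKM the members fall in an order that depends on the gene length used for each. The lengths worked back from the RPKM values were 4275 bases for *SMC3*, 6192 for *RAD21* and 11162 for *MAU2*. Their canonical transcripts are 5522, 3660 and 4845 bases long. Other lengths were not tried, so the order, ranks and ratios between genes hold for these RPKM values only. In the siNT libraries *SMC3* came first at 44.4 ± 3.80 RPKM and *SMC1A* second at 38.6 ± 1.73 RPKM, followed by *STAG2* at 32.1 ± 3.03 and *RAD21* at 31.2 ± 2.57 RPKM, whose ranges overlap (SD, n = 3 throughout). *PDS5A* at 19.1 ± 0.313 RPKM and *WAPL* at 17.2 ± 0.259 RPKM formed a middle tier, with ranges that do not meet. *NIPBL* at 8.41 ± 0.802 and *STAG1* at 7.41 ± 0.268 RPKM came next with overlapping ranges, and *PDS5B* at 3.66 ± 0.251 and *MAU2* at 2.81 ± 0.243 RPKM were lowest. Ranked among the tested genes, *SMC3* was above 93.1% of them in siNT and *MAU2* above 35.6%. With siHKlincR1 the mean of *SMC1A* moved from second place to below those of *PDS5A* and *WAPL*, at 17.7 ± 1.12 RPKM with a range that overlaps that of *WAPL*, and the means of the other members kept their order.

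Setting *SMC1A* against its ring partners within each library restates that fall without any scaling between libraries. It uses the same *SMC1A* values and adds no separate support. The ratio of *SMC1A* to *SMC3* was 0.851, 0.832 and 0.934 in the siNT libraries and 0.375, 0.368 and 0.393 in the siHKlincR1 libraries, and that of *SMC1A* to *RAD21* went from 1.24 ± 0.122 to 0.551 ± 0.0383 (SD, n = 3; no test, since *SMC1A* was selected on this contrast). Ratios that leave *SMC1A* out overlapped between the groups. *SMC3* to *RAD21* was 1.43 ± 0.102 and 1.45 ± 0.0829 (exact two-sided permutation test, p = 0.7, n = 3). The summed STAG genes to *RAD21* were 1.27 ± 0.0618 and 1.27 ± 0.0372 (exact two-sided permutation test, p = 1.0, n = 3). The loader *NIPBL* to the release factor *WAPL* was 0.490 ± 0.0521 and 0.515 ± 0.00179 (exact two-sided permutation test, p = 0.7, n = 3).

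**Figure D4:**
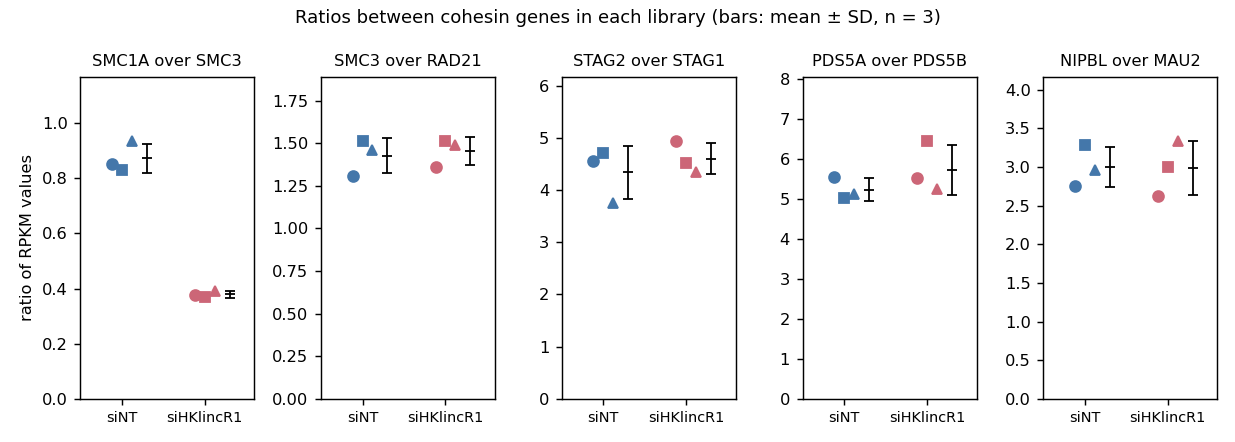
Ratios of RPKM values between pairs of cohesin genes in each library, with axes from 0, siNT in blue, siHKlincR1 in red, symbols for replicates 1, 2 and 3, and bars for the mean ± SD (n = 3). SMC1A over SMC3 drops from a mean of 0.872 to 0.379, and the other 4 ratios overlap between the groups.

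Several members also shared their lowest library. Replicate 3 of siNT was the lowest of all 6 libraries for *SMC3*, *RAD21*, *STAG2*, *NIPBL* and *MAU2*, 5 of the 9 members other than *SMC1A*. The share of all tested genes that were lowest in this library was not counted. This library had the fewest reads, 24980280, and whether depth has a part was not tested. It was not the lowest for *SMC1A*, *STAG1*, *WAPL*, *PDS5A* or *PDS5B*. Without it the log2 fold change of *RAD21* was -0.02 and that of *STAG2* -0.005, each with the sign turned, and those of *SMC3*, *NIPBL* and *MAU2* came down to 0.03, 0.10 and 0.12.

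Paralogs that take the place of core subunits in germ cells stayed close to 0. *SMC1B*, the meiotic counterpart of *SMC1A*, had means of 0.0339 RPKM with siNT and 0.0598 RPKM with siHKlincR1. *STAG3* had 0.117 and 0.107 RPKM, *REC8* 0.132 and 0.183 RPKM, and *RAD21L1* 0 and 0.0125 RPKM. All 4 were under the filter of 0.5 RPKM, and *SMC1B* stood far below *SMC1A* in both groups.

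Cohesion is established during replication by acetylation of SMC3 and by fork-linked factors. A list of cohesion establishment and protection genes, which also held *SGO1* and *HDAC8*, had 12 tested genes. None passed the test, 9 were lower and 3 higher in sign, and the median log2 fold change was -0.13. The 2 with the largest absolute change were *CDCA5* (sororin, which counters WAPL), at 14.9 ± 1.69 RPKM with siNT and 11.0 ± 3.19 RPKM with siHKlincR1, and *ESCO2*, an SMC3 acetyltransferase, at 3.06 ± 0.196 and 2.32 ± 0.609 RPKM (SD, n = 3; limma with Benjamini-Hochberg adjustment, adjusted p = 0.324 and 0.329). Unadjusted p-values under 0.05 were found for 3 of the 12 genes, beside 16.2% of all tested genes, named after their values were seen, which were the helicase *DDX11* and the clamp loader subunit *CHTF18*, both lower in sign, and the acetyltransferase *ESCO1*, higher in sign. Of the 6 tested genes of cohesin cleavage and mitotic control, 5 were lower in sign and 0 passed, with *SGO2*, a protector of centromeric cohesin, at a log2 fold change of -0.36 and the kinase *PLK1* at -0.32 (limma with Benjamini-Hochberg adjustment, adjusted p = 0.385 and 0.33). Without siHKlincR1 replicate 2 the log2 fold changes of these genes were nearer 0, at -0.23 for *CDCA5*, -0.20 for *ESCO2*, -0.145 for *SGO2* and -0.18 for *PLK1*. Without siHKlincR1 replicate 3 they were further from 0, at -0.66 for *CDCA5*, -0.57 for *ESCO2*, -0.555 for *SGO2* and -0.44 for *PLK1*.

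Condensin, the related SMC complex that compacts mitotic chromosomes, had 8 tested genes, all lower in sign, with a median log2 fold change of -0.21 and 0 passing the test. The log2 fold changes were uneven, from -0.39 for *NCAPH* to -0.004 for *NCAPH2*. *NCAPH* had 26.8, 27.8 and 29.3 RPKM with siNT and 21.2, 18.0 and 25.3 RPKM with siHKlincR1, a log2 fold change of -0.39, and *NCAPG* one of -0.27 (limma with Benjamini-Hochberg adjustment, adjusted p = 0.23 and 0.258). The groups did not overlap for these 2 of 8 genes, beside 22% of all tested genes.

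In these lists a single knockdown library was often the lowest. Replicate 2 of siHKlincR1 was the lowest of the 6 libraries for 7 of 8 condensin genes, 8 of 12 establishment and protection genes and 6 of 6 cleavage genes. It was the lowest for only 1 of the 9 members other than *SMC1A*, *PDS5B*. Replicate 3 of siHKlincR1 was the highest knockdown library for 8 of 8 condensin genes. How often each library was the lowest or highest over all tested genes was not counted. The *HKlincR1* value of replicate 3, 0.390 RPKM, was the lowest of all and rests on 27 worked-back reads. Fitted without replicate 3, *DDX11*, *NCAPH* and *NCAPD3* passed the test at log2 fold changes of -0.40, -0.51 and -0.40 (limma with Benjamini-Hochberg adjustment, adjusted p = 0.0478, 0.0329 and 0.048), and still 0 of the 9 members did, where 7.53% of all tested genes passed in that fit. *NCAPD3*, a condensin subunit, is named after its values were seen. What sets these libraries apart was not tested.

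The SMC5/6 complex, which acts in DNA repair, had 8 tested genes with 5 lower and 3 higher in sign and 0 passing, with *NSMCE2*, its SUMO ligase, at a log2 fold change of -0.40 and *SLF1* at -0.34 (limma with Benjamini-Hochberg adjustment, adjusted p = 0.168 and 0.517). The value of *SLF1* was -0.08 without siHKlincR1 replicate 2 and -0.635 without replicate 3. Of the genes listed as insulator and loop factors, *CTCF* stood at 22.9 ± 0.748 RPKM with siNT and 22.9 ± 0.75 RPKM with siHKlincR1 (SD, n = 3). *YY1* had a log2 fold change of -0.15 and *ZNF143* one of 0.02 (limma with Benjamini-Hochberg adjustment, adjusted p = 0.342 for *YY1* and 0.943 for *ZNF143*). Beside the 16.2% of all tested genes, an unadjusted p under 0.05 was found for 2 of 8 condensin genes (*NCAPH* and *NCAPG*) and 1 of 8 SMC5/6 genes (*NSMCE2*). It was found for 0 of the cleavage genes and 0 of the insulator and loop factors. In each of these lists 0 genes passed the adjusted threshold with the block or with voom. The germline CTCF paralog *CTCFL* was at 0 in all but 1 library.

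**Figure D5:**
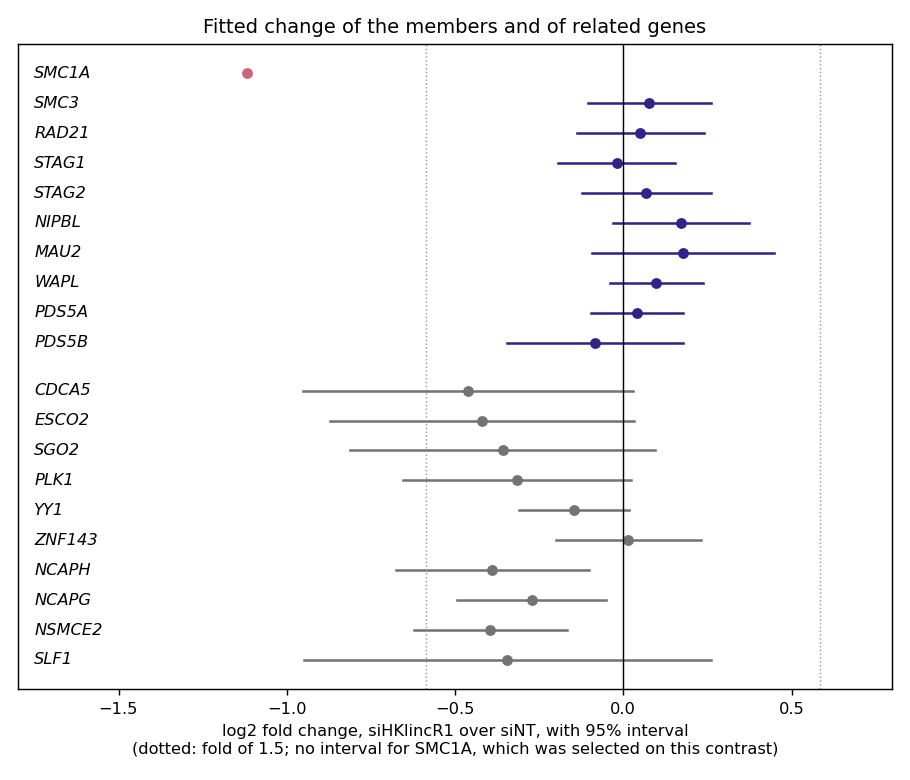
Log2 fold change, siHKlincR1 over siNT, as points with 95% intervals, for the 10 members (SMC1A in red and without an interval, the others in blue) and below them for the named genes of the related lists in grey. The intervals of all 9 members other than SMC1A include 0 and lie within the dotted lines at a fold of 1.5. The 10 related genes are the 2 with the largest absolute change in each list, and 9 of them have a negative point estimate. In the whole lists, lower signs were found for 9 of 12 establishment and protection, 5 of 6 cleavage, 1 of 3 loop, 8 of 8 condensin and 5 of 8 SMC5/6 genes. Over all tested genes it was 7689 of 15451.

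The genes whose pattern over the 6 libraries was most like that of *SMC1A* were *FMR1*, *MEF2C* and *SBNO1*, with Pearson correlations of 0.9984, 0.9983 and 0.9978 on log2(RPKM + 0.1). Their own log2 fold changes were smaller, -0.47, -0.52 and -0.30. In a design of 3 libraries against 3, any gene that steps down evenly scores highly, and 546 tested genes reached at least 0.9.

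The members lie on 8 chromosomes (GRCh37), with *SMC1A* (X, 53401070 to 53449677) and *STAG2* (X, 123094062 to 123556514) on opposite arms of X. *PDS5A* (4, 39824483 to 39979576) is on the chromosome that holds *HKlincR1*. Exons of *SMC1A* overlap those of *RIBC1* on the opposite strand by 39 bases, and *RIBC1* had 0.363 and 0.463 RPKM in the siNT and siHKlincR1 libraries. *STAG1* and *PCCB* overlap by 1661 bases, and *PCCB* had 8.30 and 9.61 RPKM. *RAD21* and *UTP23* overlap by 576 bases, and *UTP23* had 4.15 and 4.12 RPKM. Whether strand was used in counting is not given in the sources used here, so shared reads at *STAG1* and *RAD21* are uncertain.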

How the data were processed

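PolyA RNA was sequenced from 3 siNT and 3 siHKlincR1 libraries (strand-specific kit, paired-end reads). The authors counted reads on Ensembl gene models with Rsubread, tested counts with edgeR, and deposited RPKM values per gene. Their processing notes name CASAVA 1.8.2, featureCounts and GRCh37. The aligner is not given in the sources used here. Reads, gene lengths and library totals (24980280 to 30521000 reads) were worked back from the unrounded RPKM values, and 100% of nonzero values came out whole within 0.01.

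limma 3.58.1 in R 4.3.3 (lmFit, eBayes with trend, no block) was fitted to log2(RPKM + 0.1) for the 15451 genes averaging 0.5 RPKM or more, with Benjamini-Hochberg adjustment over all of them. A fold change on this scale understates that of low genes. Calls needed a fold over 1.5 and an adjusted p under 0.05. Single values other than those of *SMC1A* were compared with exact permutation tests. Of the steps, the working back of reads and the limma fit were tested on simulated data. The libraries simulated for the fit shared no effect by replicate number. Same-numbered libraries deviated together (correlations of 0.142, 0.137 and 0.266, against -0.209 to 0.113 for unlike numbers). A fit blocked on the replicate number was run as an alternative. The main fit and the exact tests do not pair the samples by these numbers. No source says that they mark shared cultures or days, and p-values measure only the spread between these libraries.

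Gene names, 3′ UTRs and positions came from GENCODE v44 on GRCh37 (55538 of 57773 identifiers matched). The members and lists were chosen with earlier results of these data known. The genes named were the members, the siRNA target, the markers, in each other list every gene passing the test and otherwise the 2 with the largest absolute change, and the 3 genes most correlated with *SMC1A*. Named outside this rule, with values in view, were *CTCF*, *CTCFL*, the germline paralogs, *DDX11*, *CHTF18*, *ESCO1*, *NCAPD3* and the genes that overlap members. *PECAM1*, a marker on the list, was not matched and has no value. Alternatives changed the pseudocount, filter, scaling, variance trend and block, used voom, and left out each library.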

Additional observations from a re-analysis of the deposited data

How the results depend on the processing

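None of the 9 members other than *SMC1A* was called, or passed an adjusted p under 0.05 (limma with Benjamini-Hochberg adjustment, 0.175 to 0.988), in the 15 alternatives run. *SMC1A* ranged from -1.17 to -1.08 in log2 fold change. Genes called lower, 55 in all, numbered 34 without a filter on low values, 16 without the variance trend, 125 with the replicate block and 87 with voom. Genes called higher, 1 in all, numbered 0 with a pseudocount of 0.01, 12 without the filter, 79 with the block and 2 with voom. The block, which pairs same-numbered libraries, changed no member's call. Leaving out a single library gave 7 to 314 lower calls and 0 to 204 higher calls. The upper ends came without siHKlincR1 replicate 3, and leaving out siNT replicates 1, 2 or 3 gave 7, 7 and 12 lower calls, siHKlincR1 replicates 1 or 2 gave 8 and 18, and the cause was not tested. The sign turned for small values when a library was left out, with log2 fold changes of -0.019 to 0.095 for *RAD21* and -0.005 to 0.131 for *STAG2* (siNT replicate 3), -0.06 to 0.015 for *STAG1* (siNT replicate 3 or siHKlincR1 replicate 1), -0.162 to 0.005 for *PDS5B* (siHKlincR1 replicate 2) and -0.039 to 0.083 for *ZNF143* (siNT replicate 2 or siHKlincR1 replicate 3). Leaving out siHKlincR1 replicate 1 took *MAU2* to 0.106, siNT replicate 2 took *SMC3* to 0.145 and siHKlincR1 replicate 3 took *PDS5A* to 0.022. With 3 libraries a group, the 95% intervals of the fold do not exclude 1.36 for *MAU2* or 0.787 for *PDS5B*.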
